A study of Mus musculus with 9 samples.

Results

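Mouse muscle RNA was examined here through 5 nuclear rows that carry copies of mitochondrial genes. The rows are Gm28437, Gm10925, Gm28661, Gm29216 and Gm13340, which were taken by symbol from the 19335 features of the deposited sheet. They were selected on their total counts, which were high over all libraries, so their overall level is a description and was not tested. The data comprised 9 mRNA libraries of muscle from C57BL/6J mice of the WT genotype, 3 in each of 3 groups. The first group, called carnitine below, ate a high-fat diet, in which fat gave 60% of energy, and drank water with L-carnitine, dosed at 100 mg/kg/day. The second, called high-fat diet, had the 60% fat diet alone. The third, called control, ate a regular diet with fat at 10% of energy. In all groups the mice were 9 weeks old at assignment, had 2 weeks of acclimatisation and 8 weeks of feeding, with a final fast of 6 h. Neither the muscle nor the sex is in the labels. Nor do they state whether every library had its own mouse, and the spread behind each p-value is therefore that of libraries, which may be technical.

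The mitochondrial genome encodes core subunits of the respiratory chain and of ATP synthase, and both of its strands are transcribed as long RNAs that are then cut into single messengers. Pieces of mitochondrial DNA have been inserted into nuclear chromosomes during evolution. Such copies are not thought to yield respiratory proteins, since mitochondria read the genetic code differently, and their recent members differ little from the mitochondrial original. In muscle, a tissue rich in mitochondria, mitochondrial messengers are among the most abundant RNAs.

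Gm28437, Gm10925, Gm28661 and Gm29216 lie side by side on the minus strand of chromosome 1 (GRCm39 coordinates from the sheet), in a block of 4663 bases that holds 7 such rows, chr1:24650616-24655278. Gm28437 (ENSMUSG00000101111, chr1:24652270-24653052, 783 bases) is a copy of mt-Co3, and Gm28661 (ENSMUSG00000102070, chr1:24653966-24654646, 681 bases) a copy of mt-Co2. Both genes code for subunits of cytochrome c oxidase, respiratory complex IV. Gm10925 (ENSMUSG00000100862, chr1:24653055-24653732, 678 bases) is a copy of mt-Atp6, the subunit of ATP synthase in its proton path. These 3 rows were identical to their mitochondrial genes at 100% of bases. Gm29216 (ENSMUSG00000101249, chr1:24654787-24655278, 492 bases) copies the end of mt-Co1, the catalytic subunit of complex IV, from base 1063 to base 1545. It differed at 1 base, A1066T, with the mt-Co1 base first and positions counted from the first base of mt-Co1. All 5 rows are annotated as unprocessed pseudogenes. The starts of the 4 rows on chromosome 1 are shown because reads from identical stretches cannot be assigned by sequence to the nuclear or the mitochondrial gene. Capitals mark the initiation codon in Gm28437, Gm10925 and Gm28661. In Gm29216 they mark the 9 bases outside the alignment with mt-Co1. All sequences are GENCODE M21 transcripts, read by identifier.
Gm28437: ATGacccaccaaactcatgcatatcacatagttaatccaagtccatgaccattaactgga
Gm10925: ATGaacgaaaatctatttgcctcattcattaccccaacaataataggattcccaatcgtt
Gm28661: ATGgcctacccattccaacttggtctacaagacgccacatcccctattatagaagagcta
Gm29216: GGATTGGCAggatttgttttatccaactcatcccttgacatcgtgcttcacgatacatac

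Gm13340 (ENSMUSG00000083563, chr2:22478115-22479659, minus strand, 1545 bases) copies the whole of mt-Co1. It lies within the span of Myo3a, an unconventional myosin gene of the other strand, but shares no exon with it in M21. Its identity to mt-Co1 was 97.6%, with 37 differing bases and a longest identical run of 148 bases. Bases 445 to 534 are the 90-base window with most differences, 5, marked by capitals, and are printed because most bases are shared even here.
Gm13340: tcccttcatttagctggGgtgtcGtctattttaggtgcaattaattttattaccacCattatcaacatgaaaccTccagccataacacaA
mt-Co1: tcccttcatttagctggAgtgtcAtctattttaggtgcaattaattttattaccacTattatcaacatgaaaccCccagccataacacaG

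The rows of the mitochondrial genes themselves were not analysed here (0 of 15 listed genes had a row in the sheet used). Counts on the 5 copies are therefore uncertain as to their source, nuclear or mitochondrial, and every level below is that of the row. In 694 pairs of opposite-strand features that share exon bases in M21, 1 feature held at least 5 times the total of the other. The larger had at least 500 counts and the smaller at least 90 over all libraries. Such pairs do not by themselves show which strand was counted. No source used here gives the strand setting of the count. Which strand the count of a row stands for, that of Gm11408 described below included, therefore cannot be told. In bulk muscle, fewer cells of a type and less RNA per cell cannot be told apart either.

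The 5 rows together took 0.936% of all counts. Summed, they held 67705, 13461 and 12780 counts in carnitine 1 to 3, against 21531, 39149 and 23389 in the high-fat diet libraries and 21786, 11696 and 18661 in control. As shares of a library's counts these were 2.67%, 0.518% and 0.551% with carnitine, 0.798%, 1.04% and 0.916% with the high-fat diet alone, and 0.779%, 0.505% and 0.624% in control. Carnitine 1 stood apart, at 2.57 times the next library. The other carnitine libraries lay below all 3 high-fat diet libraries and within the control range. The group means were 1.25% ± 1.23 with carnitine, 0.917% ± 0.120 with the high-fat diet alone and 0.636% ± 0.138 in control (SD, n = 3 each). Fold changes of the 5 rows and values of gene lists with carnitine are therefore given both with all 9 libraries and without carnitine 1.

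Among the rows of cytochrome c oxidase genes, Gm13340, the mt-Co1 copy on chromosome 2, took 0.889%, 0.140% and 0.110% of counts with carnitine, 0.180%, 0.264% and 0.212% with the high-fat diet alone, and 0.165%, 0.118% and 0.150% in control. Its 95% Wilson interval was 0.878 to 0.901% in carnitine 1 and 0.136 to 0.145% in carnitine 2, so the gap between these libraries was outside counting error. The lowest high-fat diet library exceeded the highest control library. Over all tested features this was counted in CPM (counts rescaled to the same total per library) after TMM scaling, where 7.23% did so. Gm29216, the copy of the end of mt-Co1, was at 0.360%, 0.0822% and 0.0991% with carnitine, at 0.127%, 0.191% and 0.153% on the high-fat diet and at 0.145%, 0.0904% and 0.115% in control. Here the high-fat diet and control libraries overlapped. Gm28661, the mt-Co2 copy, took 0.683%, 0.104% and 0.0992% with carnitine, 0.151%, 0.206% and 0.195% with the high-fat diet alone, and 0.162%, 0.114% and 0.129% in control, again with overlap between the last 2 groups. Gm28437, the mt-Co3 copy, took 0.498%, 0.0962% and 0.117% with carnitine, 0.158%, 0.189% and 0.161% with the high-fat diet alone, and 0.133%, 0.0914% and 0.112% in control. As for Gm13340, every high-fat diet library exceeded every control library.

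Gm10925, the mt-Atp6 copy and the only one of the 5 rows from outside complex IV, varied least. It took 0.237%, 0.0958% and 0.125% of counts with carnitine, 0.182%, 0.187% and 0.194% with the high-fat diet alone, and 0.174%, 0.0913% and 0.118% in control. As a share of counts, every high-fat diet library was above every control library, but in CPM after TMM scaling they overlapped. Carnitine 1 exceeded the next library 1.22 times in Gm10925, against 1.88 times in Gm29216, 2.64 in Gm28437, 3.31 in Gm28661 and 3.37 in Gm13340. The spread of log2 CPM within groups was 0.40 for Gm10925 (SD pooled over the groups) and 0.64 to 0.89 for the other rows. The median was 0.54 over all tested features, and 0.30 over the 58 tested features at least as high as the lowest of the 5 rows.

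**Figure D1:**
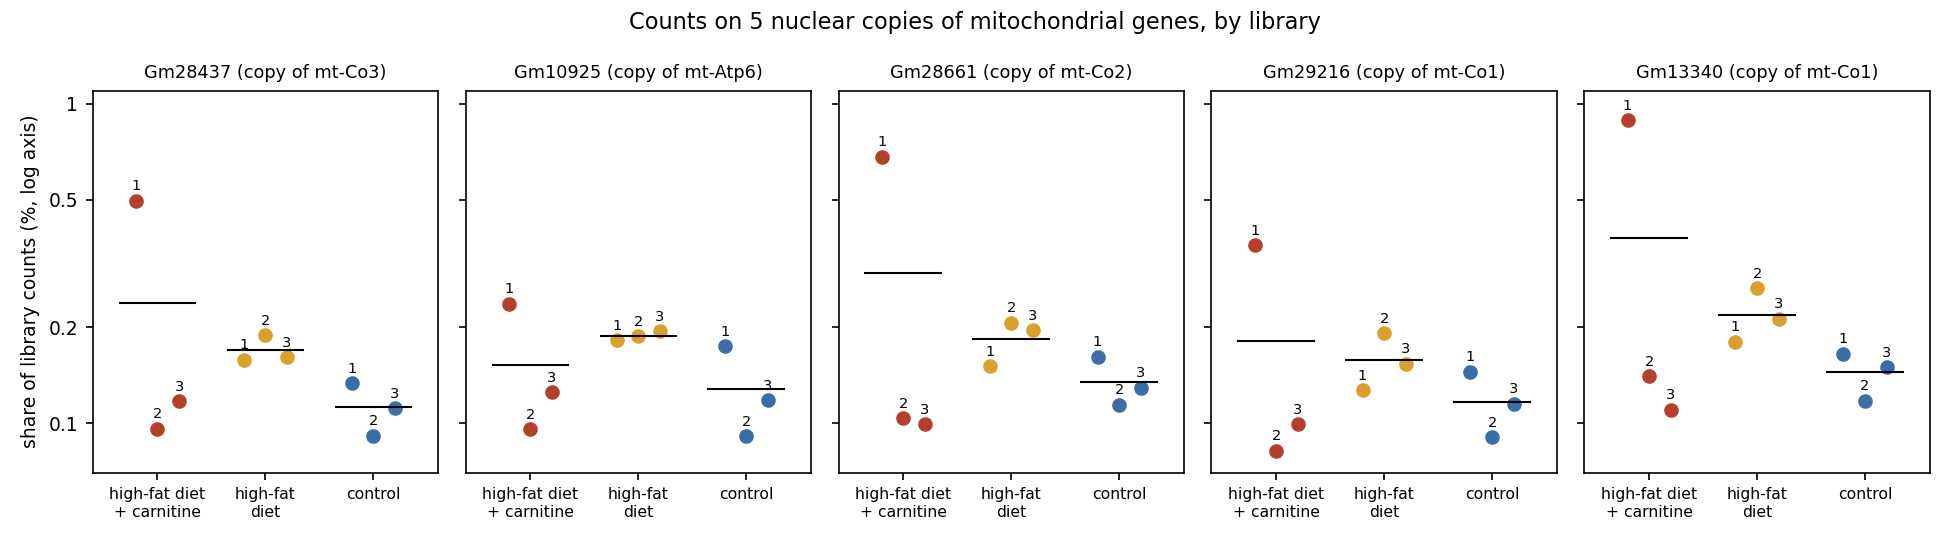
Share of each library's counts (%, log axis) on the 5 rows, with 1 point per library, numbered by replicate, and a line at each group's mean. Carnitine 1 is the highest library in every panel, and its lead is least for Gm10925 (0.237%, against 0.194% in the next library).

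The proportions among the rows also differed in carnitine 1. Counts of Gm28437 relative to Gm10925, the adjacent row, had a ratio of 2.10 in carnitine 1 and 0.764 to 1.01 in the other 8 libraries. The ratio of Gm28661 to Gm10925 was 2.88 in carnitine 1, against 0.793 to 1.25. For Gm29216 it was 1.52, against 0.699 to 1.02, and for Gm13340 3.75, against 0.883 to 1.46. In the other 8 libraries the 5 rows thus kept ratios of 0.699 to 1.46 to Gm10925 in all groups, and carnitine 1 was outside the range of the others in each ratio. These ratios compare counts within a library and do not depend on its total.

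**Figure D2:**
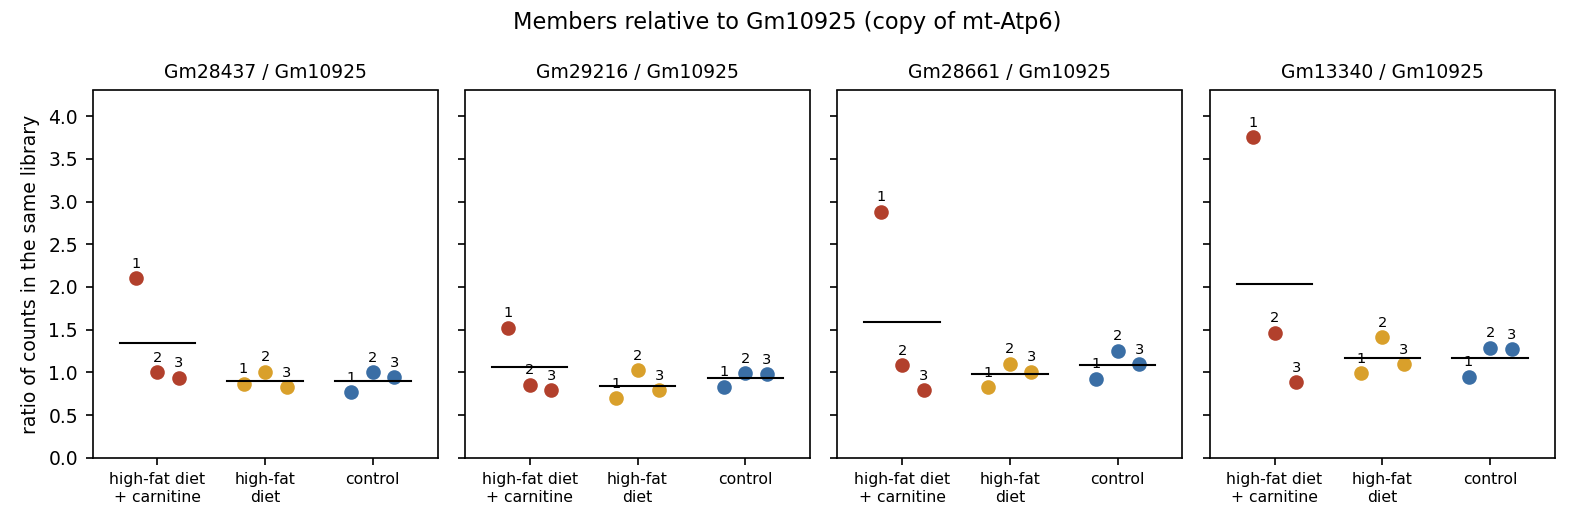
Counts of 4 rows divided by the counts of Gm10925 in the same library, with 1 point per library, numbered by replicate, and a line at each group's mean. Carnitine 1 is above all other libraries in every panel, most for Gm13340 (3.75, against at most 1.46).

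Levels of different rows can be compared only per length, for which the deposited FPKM values (fragments scaled by row length and library total) were used. The median FPKM over 9 libraries was 2585 for Gm29216, 2571 for Gm10925, 2214 for Gm28661, 1702 for Gm28437 and 1069 for Gm13340. The ranges over libraries overlapped between all neighbours in this order. Gm29216 reached 1670 to 7325 FPKM and Gm13340 715 to 5757. Within libraries the order was more regular, with Gm29216 the highest of the 5 in 7 libraries and Gm13340 the lowest in 8. The exceptions were carnitine 1, where Gm28661 was highest and Gm10925 lowest, and high-fat diet 1, where Gm10925 was highest. The highest row exceeded the lowest 1.84 to 2.87 times in a library.

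Sequence identity was compared with level over every row of the sheet that aligned to a mitochondrial gene over at least 80% of its length at 90% identity or more. Beside the 5 rows, 10 others met this, and all 15 had the same orientation as their gene. On chromosome 1 the block continues with Gm28438 (copy of mt-Nd3, 99.7% identity), Gm10222 (mt-Nd4l, 100%) and Gm28439 (mt-Nd4, 100%), which copy subunits of NADH dehydrogenase, respiratory complex I. Just below the 5 rows in total was Gm28439, with 16334 counts, against 37741 for Gm29216, the lowest of the 5. In all, the 5 rows held 39.1% of the counts of the 15 copies, and Gm11408, a copy of mt-Nd6, held 53.8%. Of the counts on copies other than Gm11408, the 5 rows held 84.5%.

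Where 2 rows copy the same gene, the closer copy had the higher FPKM in 9 of 9 libraries, in each of 5 such pairs. In 4 of these pairs at least 1 row is among the 5 chosen for high counts, and against Gm13341 or Gm11512 this choice largely fixes the order, which is given as a description. The only pair with none of the 5 rows is that for mt-Nd5. Gm28661, identical to mt-Co2, held 50193 counts, while Gm13341, the mt-Co2 copy beside Gm13340 on chromosome 2 (95.9% identity), held 12. Gm13341 had 0 counts in 6 libraries, which allows a share of up to 0.000100 to 0.000130% in those libraries with 3 counts taken as the limit. For mt-Co1, Gm13340 held 60859 counts and the chromosome 11 row Gm11512 (90.7% identity, named after its values were seen) held 7. Gm29216 held 37741 counts on 492 bases, and exceeded Gm13340 in FPKM although both copy mt-Co1. They share 483 bases of the gene, and 1062 bases of Gm13340 have no counterpart in Gm29216. For mt-Nd5, Gm4076 (chromosome 13, 95.2%) held 8037 counts and Gm11407 (chromosome 4, 92.3%) held 720. The pairs differ in length and place as well as in identity, and the part of identity in these levels was not tested. Between copies of different genes, identity and level did not always go together. At 100% identity, Gm28661, Gm10925 and Gm28437 held 73705, 57298 and 54300 counts per kilobase, and Gm10222 and Gm28439 held 19102 and 18646. Gm13340, at 97.6%, held 39391. The mt-Co2 window in which Gm13341 differs most is printed because Gm13341 has almost no counts. Capitals mark 7 differing bases and, in mt-Co2, also a stretch of 12 bases that Gm13341 lacks.
Gm13341: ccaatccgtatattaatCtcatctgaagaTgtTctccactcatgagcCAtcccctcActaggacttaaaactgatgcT
mt-Co2: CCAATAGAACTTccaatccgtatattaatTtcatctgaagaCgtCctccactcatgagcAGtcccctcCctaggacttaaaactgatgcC

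**Figure D3:**
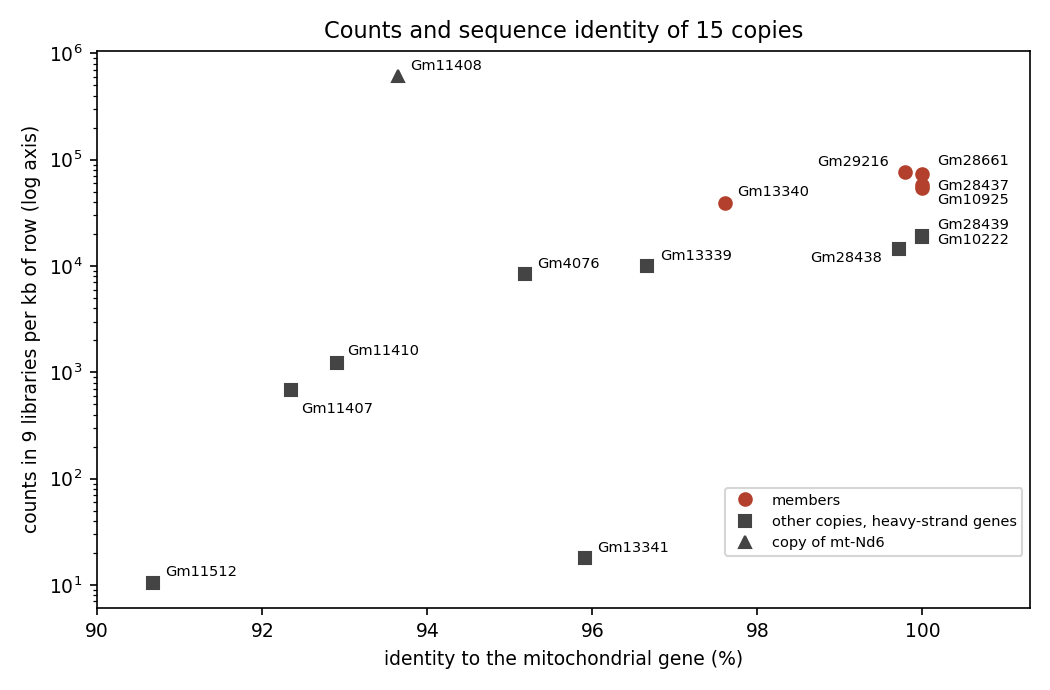
Counts over 9 libraries per kilobase of row (log axis) against identity to the mitochondrial gene (%), with 1 point per copy. Red circles are the 5 rows, squares other copies of genes that the heavy strand encodes, and the triangle Gm11408, the copy of mt-Nd6. Gm11408 lies above all others at 93.6% identity, and Gm13341 and Gm11512 lie near the bottom with 12 and 7 counts.

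Gm11408 (ENSMUSG00000083076, chr4:79921633-79922151, minus strand, 519 bases) was the copy with most counts, 316906, and ranked place 9 among all features. Its gene, mt-Nd6, codes for a complex I subunit and is known as the only protein gene read from the mitochondrial light strand. Identity to mt-Nd6 was 93.6%, with 33 differing bases and a longest identical run of 39. Its neighbours on the plus strand, Gm11407 and Gm11410 (copy of mt-Cytb of complex III, 92.9%), held 720 and 1385 counts. Thus 3 adjacent rows of like identity differed in level, with Gm11408 at 120 to 880 times the counts of Gm11407. The window of Gm11408 with most differences from mt-Nd6 holds 15 of them, in capitals.
Gm11408: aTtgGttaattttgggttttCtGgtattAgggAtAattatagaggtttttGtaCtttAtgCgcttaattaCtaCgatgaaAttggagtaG
mt-Nd6: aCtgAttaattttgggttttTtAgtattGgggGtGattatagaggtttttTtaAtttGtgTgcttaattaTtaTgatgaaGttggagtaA

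Gm11408 did not follow the 5 rows over the libraries. Its share was 2.09%, 1.67% and 1.91% with carnitine, against 1.12%, 0.501% and 1.20% with the high-fat diet alone and 1.63%, 1.22% and 0.742% in control. All 3 carnitine libraries were above all others, though carnitine 2 (1.67%) was little above control 1 (1.63%). The 5 rows had 1 high and 2 low carnitine libraries. In CPM, 10.2% of tested features had all carnitine libraries above the high-fat diet libraries, and 6.45% had them all above control. Counts of Gm11408 were 0.784, 3.23 and 3.47 times those of the 5 rows together with carnitine, 1.41, 0.483 and 1.32 times with the high-fat diet alone, and 2.10, 2.41 and 1.19 times in control. Over 9 libraries, the profile of Gm11408 (centred log2 CPM) had a root-mean-square difference of 0.89 from that of the 5 summed rows, place 2907 of 3882 ranked features, whose median was 0.78.

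**Figure D4:**
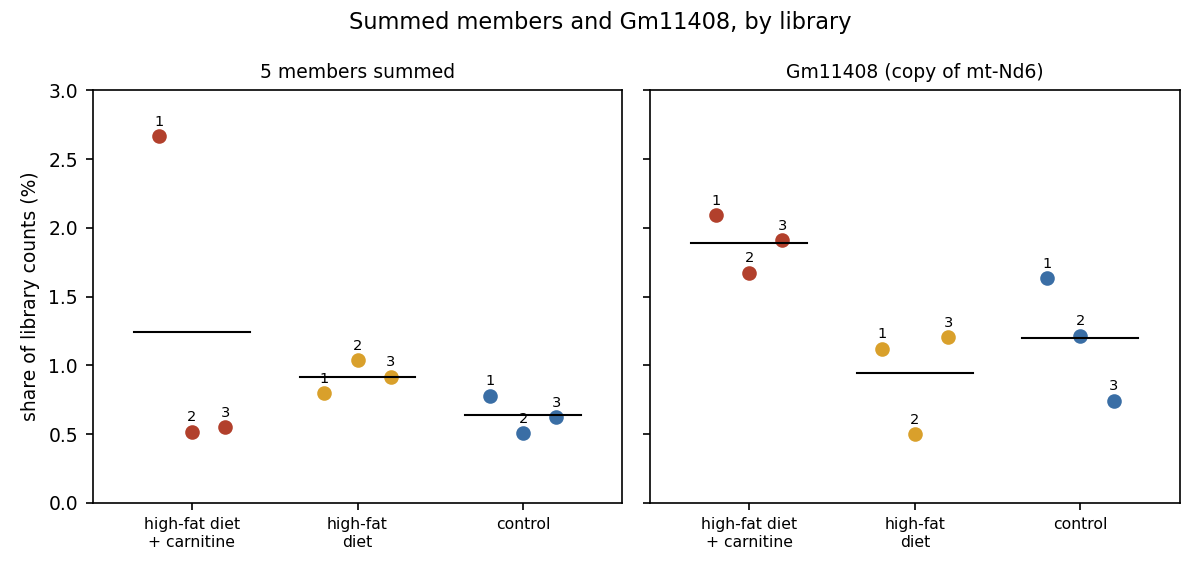
Share of each library's counts (%) on the 5 rows together (left) and on Gm11408 (right), with 1 point per library, numbered by replicate, and a line at each group's mean. The 5 rows have 1 high carnitine library (2.67%), whereas all 3 carnitine libraries of Gm11408 (1.67 to 2.09%) lie above the other groups (at most 1.63%).

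On the high-fat diet against control, the 5 rows were at log2 fold changes of 0.26 to 0.43, and none passed the test (edgeR's quasi-likelihood test, adjusted p below 0.05 over 7523 tested features). Over all tested features 0.0532% passed, 4 in number, and the median log2 fold change was 0.00. Gm13340 averaged 2017 ± 296 CPM on the high-fat diet and 1498 ± 177 in control (SD, n = 3 each), 0.43 on the log2 scale (SE 0.72, edgeR adjusted p = 0.977). Gm28437 averaged 1562 ± 76.9 CPM on the high-fat diet and 1165 ± 172 in control, 0.42 on the log2 scale (SE 0.47, edgeR adjusted p = 0.954). Gm10925 was at 0.39 (SE 0.26, adjusted p = 0.890), Gm28661 at 0.28 (SE 0.69, adjusted p = 0.996) and Gm29216 at 0.26 (SE 0.41, adjusted p = 0.969), all by edgeR. None of the 5 was below an unadjusted p of 0.05, and DESeq2 and limma-voom also called 0. In 2 of the 5, Gm28437 and Gm13340, every high-fat diet library exceeded every control library in CPM, which 7.23% of all tested features did. The rows share sequence with 1 source genome and their counts moved together, so they are not independent of each other.

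The standard errors in this comparison depend on carnitine 1, since all 9 libraries share 1 estimate of the spread. Without carnitine 1 the fold changes of the high-fat diet against control stayed at 0.25 to 0.43, and the standard error of Gm13340 was 0.20 in place of 0.72. Gm13340 (0.43) and Gm28437 (0.42) were then at an unadjusted p of 0.0360 each, and neither passed (adjusted p = 0.568 each, edgeR).

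With carnitine on the high-fat diet against the high-fat diet alone, 0 of the 5 rows passed and 0 were below an unadjusted p of 0.05 (edgeR), beside 0.0532% of all tested features that passed. DESeq2 and limma-voom also called 0. Gm13340 averaged 3785 ± 4140 CPM with carnitine and 2017 ± 296 on the high-fat diet, 0.91 on the log2 scale (SE 0.73, edgeR adjusted p = 0.674). Gm28661 was at 0.79 (SE 0.70, adjusted p = 0.709), Gm28437 at 0.61 (SE 0.47, adjusted p = 0.638), Gm29216 at 0.34 (SE 0.41, adjusted p = 0.793) and Gm10925 at −0.14 (SE 0.26, adjusted p = 0.875), all by edgeR. No row had carnitine libraries all above or all below the high-fat diet libraries, while 10.2% of tested features had them all above. For the 4 rows that were higher the direction rested on carnitine 1, and Gm10925 was at 0.13 when scaling used only features with no opposite-strand feature. Without carnitine 1, all 5 were lower with carnitine, Gm28661 at −0.58 (SE 0.22, adjusted p = 0.143), Gm13340 at −0.52 (SE 0.22, adjusted p = 0.190), Gm29216 at −0.51 (SE 0.23, adjusted p = 0.205), Gm10925 at −0.49 (SE 0.23, adjusted p = 0.238) and Gm28437 at −0.39 (SE 0.22, adjusted p = 0.320), all by edgeR. In that fit 4 of the 5 were below an unadjusted p of 0.05, as were 1583 of 8087 tested features, and 84 features passed.

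The comparison of carnitine with control gave 0 of 5 rows past the test, beside 0.425% of all tested features. This comparison shares libraries with both others. Gm13340 averaged 3785 ± 4140 CPM with carnitine and 1498 ± 177 in control, 1.34 on the log2 scale (SE 0.73, edgeR adjusted p = 0.607). Gm28661 was at 1.07 (SE 0.70, adjusted p = 0.688), Gm28437 at 1.04 (SE 0.47, adjusted p = 0.482), Gm29216 at 0.59 (SE 0.41, adjusted p = 0.686) and Gm10925 at 0.25 (SE 0.26, adjusted p = 0.814), all by edgeR. None of the 5 was below an unadjusted p of 0.05, and DESeq2 and limma-voom called 0. Under alternatives 0 to 4 of the 5 were below it, with 0 without carnitine 1. There were 4 without carnitine 2, beside 655 of 8263 tested features, and 4 without carnitine 3, beside 774 of 8251 (edgeR). Without carnitine 1 the values were −0.10 for Gm13340, −0.31 for Gm28661, 0.03 for Gm28437, −0.26 for Gm29216 and −0.10 for Gm10925. The larger differences from control thus rested on 1 library, as those from the high-fat diet did. No row had all carnitine libraries above control, which 6.45% of tested features had.

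**Figure D5:**
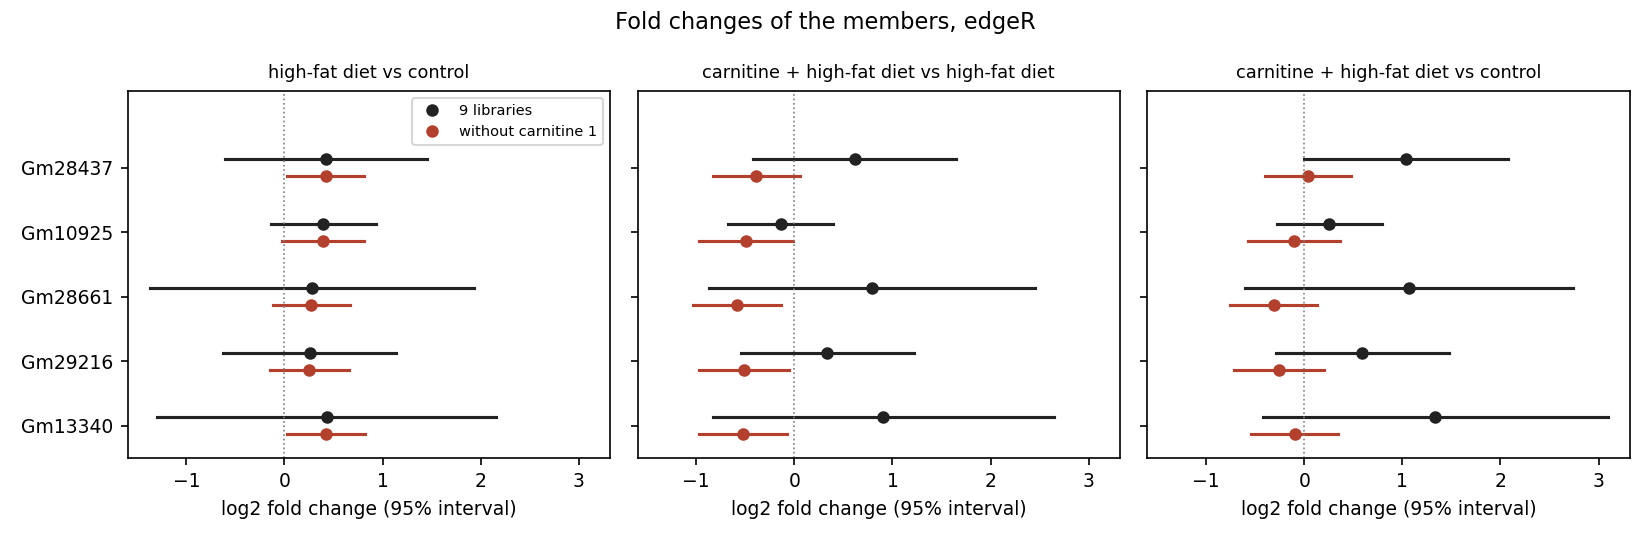
Log2 fold changes of the 5 rows in the 3 comparisons with 95% intervals (edgeR), from all 9 libraries (black) and without carnitine 1 (red). Without carnitine 1 the values of carnitine against the high-fat diet lie between −0.58 and −0.39, and those of the high-fat diet against control hardly move.

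Gm11408, by contrast, kept its direction in each fit without a library. It averaged 20025 ± 1338 CPM with carnitine and 8848 ± 3879 on the high-fat diet, 1.18 on the log2 scale (SE 0.32, 95% interval 0.51 to 1.84, edgeR adjusted p = 0.199), and was at 1.18 without carnitine 1. It did not pass, although DESeq2 (adjusted p = 0.0373) and edgeR without a filter on low counts (adjusted p = 4.56e-05) called it. Over the other alternatives its adjusted p lay between 0.162 and 0.508. Against control it was at 0.67 with carnitine (SE 0.32, adjusted p = 0.473, and again 0.67 without carnitine 1) and at −0.51 on the high-fat diet (SE 0.31, adjusted p = 0.889), by edgeR. Whether Gm11408 differs in its response from the 5 rows was not tested. None of the other 7 tested copies passed in any comparison. Gm28438, the mt-Nd3 copy, came nearest, at 0.83 with carnitine against control (SE 0.24, adjusted p = 0.173 by edgeR) and 0.79 without carnitine 1.

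Genes that make and process mitochondrial messengers, or whose proteins join those that the messengers encode, were set beside the rows. For these lists, leaving out carnitine 1 is an alternative added after the data were seen. Of the nuclear-encoded subunits of the respiratory chain and ATP synthase, which assemble with mitochondrially encoded proteins other than in complex II, 32 were tested and 0 passed in any comparison with all 9 libraries (edgeR). On the high-fat diet against control 26 were higher and 6 lower (median log2 fold change 0.23, against 0.00 over all tested features). With carnitine against the high-fat diet 4 were higher and 28 lower (median −0.39, against −0.01), and with carnitine against control 11 were higher and 21 lower (median −0.29, against −0.00). Without carnitine 1, 0 were higher and 32 lower with carnitine than on the high-fat diet (median −0.77, against −0.07 over all tested features), and 3 passed, beside 1.04% of all tested features. Carnitine 2 and 3 were lowest in the share of counts on features with no opposite-strand feature. They had 9.31% and 9.98%, against 12.8% to 15.3% on the high-fat diet. Scaling on such features, which put the median of all features at 0.32 with 9 libraries, was not applied to the lists. In the 694 pairs described above, the smaller feature's count was a median of 5.01% and 4.77% of the larger's in carnitine 2 and 3. It was 6.73% to 8.84% on the high-fat diet and 6.13% to 8.17% in control. The part of these differences in the list values was not tested. Among the 3 subunits that passed were, named after their values were seen, Uqcrq of complex III at −1.32 (SE 0.33, adjusted p = 0.0395) and Sdhb of complex II at −1.17 (SE 0.30, adjusted p = 0.0484), by edgeR. With all 9 libraries Uqcrq was at −0.53 and Sdhb at −0.54, and neither passed (adjusted p = 0.596 and 0.526, edgeR). Against control, 2 were higher and 30 lower without carnitine 1 (median −0.64, against −0.07), and 0 passed, beside 1.06% of all tested features. Of the 32, 17 were below an unadjusted p of 0.05 there, as were 1242 of 8087 tested features (edgeR). The largest difference among those at 10 CPM or more was that of Ndufs1, a complex I subunit on the opposite strand of Eef1b2 and Ino80dos, with 17.0 ± 9.28 CPM with carnitine and 38.1 ± 18.9 on the high-fat diet (log2 fold change −1.16, SE 0.42, adjusted p = 0.279 by edgeR), and it was at −1.61 without carnitine 1 (adjusted p = 0.0613). Cox6a2, a muscle subunit of complex IV opposite Itgad, was at −0.78 with carnitine against the high-fat diet (SE 0.29, adjusted p = 0.297) and at −0.88 against control (SE 0.29, adjusted p = 0.237), by edgeR. Without carnitine 1 its values were −1.01 and −1.11 (edgeR adjusted p = 0.0724 and 0.0562). Uqcrq of complex III was at 0.81 on the high-fat diet against control (SE 0.37, adjusted p = 0.750 by edgeR), and Sdhd of complex II at 0.66 (SE 0.55). Ndufa9, opposite 1700018A23Rik, averaged 43.0 ± 39.9 CPM with carnitine and 23.3 ± 8.49 in control, 0.90 on the log2 scale (SE 0.50, adjusted p = 0.564 by edgeR). Without carnitine 1 it was at −0.19, so its direction rested on that library.

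Of mitochondrial transcription and RNA processing genes 17 were tested and 0 passed, with all libraries or without carnitine 1. On the high-fat diet against control 4 were higher and 13 lower (median −0.23), with Fastkd1, of an RNA-binding family in mitochondria, at −0.95 (SE 0.50) and Mterf4, a regulator of mitochondrial ribosome assembly opposite Sned1, at −0.74 (SE 0.30). With carnitine against the high-fat diet 9 were higher and 8 lower (median 0.08), with Grsf1, a protein of mitochondrial RNA granules, at −0.99 (SE 0.46) and Mterf4 at 0.66 (SE 0.30). With carnitine against control 5 were higher and 12 lower (median −0.29), with Grsf1 at −0.84 (SE 0.46) and Fastkd1 at −0.81 (SE 0.50). Without carnitine 1, 10 were higher and 7 lower against the high-fat diet (median 0.30), with Grsf1 at −1.23 and Mterf4 at 0.64, and 6 were higher and 11 lower against control (median −0.12), with Grsf1 at −1.08 and Fastkd1 at −0.45. Mitochondrial DNA maintenance had 8 tested genes, of which 6 were higher and 2 lower on the high-fat diet against control (median 0.10), and 4 higher and 4 lower with carnitine against either group (medians −0.18 and 0.06, or −0.09 and −0.10 without carnitine 1, again with 4 higher and 4 lower). With all 9 libraries none of them passed. Its Mpv17, an inner membrane protein whose loss depletes mitochondrial DNA, averaged 45.8 ± 9.32 CPM on the high-fat diet and 103 ± 12.5 in control. That log2 fold change of −1.17 did not pass (SE 0.27, adjusted p = 0.0776 by edgeR) with all libraries, but passed without carnitine 1 at the same value (SE 0.24, adjusted p = 0.00979, edgeR), beside 0.754% of all tested features. It was the only one of the 8 to pass in that fit, in any comparison. Mpv17 was at −0.70 with carnitine against control (SE 0.27, adjusted p = 0.302), or −0.55 without carnitine 1. Also in that list, Endog was at −0.33 on the high-fat diet against control, Lig3 at 0.52 and Mgme1 at −0.49 with carnitine against the high-fat diet, and Lig3 at 0.54 against control. Without carnitine 1 the last 3 were 0.64, −0.30 and 0.66. These 3 genes have opposite-strand partners, Spout1 for Endog, Rffl for Lig3 and Snx5 for Mgme1. Biogenesis regulators had 7 tested genes (8 without carnitine 1) and 0 calls in either fit, with 2 higher and 5 lower on the high-fat diet against control (median −0.11) and 4 higher and 3 lower with carnitine against the high-fat diet (median 0.13) and against control (median 0.10). Among them the nuclear receptor Esrra, opposite Trmt112, was at 0.53, −0.42 and 0.11 in these 3 comparisons. Gabpa, opposite Atp5j, was at −0.17 in the first, and Pprc1, opposite Ldb1, at 0.52 and 0.41 in the other two. Without carnitine 1, 5 regulators were higher and 3 lower against the high-fat diet (median 0.25) and 6 higher and 2 lower against control (median 0.14), with Esrra at −0.56 and −0.03 and Pprc1 at 0.51 and 0.40.

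The feature most like the 5 summed rows over the 9 libraries was Gm13339, the mt-Nd2 copy next to Gm13340 on chromosome 2 (root-mean-square difference of centred log2 CPM 0.19, among 3882 features with a mean of at least 10 CPM). It had 591, 177 and 125 CPM with carnitine, 178, 172 and 196 with the high-fat diet alone, and 172, 117 and 121 in control. The nearest features were picked by this profile, so a high carnitine 1 follows from the choice and is given as a description. The next in order were Ndufa12, a complex I subunit (0.22), the zinc finger gene Zfp91 (0.22), Fabp4, a fatty acid binding protein of adipocytes and capillary endothelium (0.23), and the phospholipase gene Plaat3 (0.25). Ndufa12 had 89.1 CPM in carnitine 1, against 18.8 to 44.6 in the other 8 libraries. Of the other copies, Gm28439 came at place 18 and Gm11410 at place 20.

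Library totals ranged from 2315985 to 3773649 counts, and carnitine 1, with 2538389, was not extreme. Features with no opposite-strand feature in the sheet, to which the 4 rows on chromosome 1 belong, took 14.1%, 9.31% and 9.98% of counts with carnitine, 12.8%, 14.3% and 15.3% with the high-fat diet alone, and 15.5%, 10.3% and 14.1% in control. The libraries with least of these counts, carnitine 2 and 3 and control 2, were also those with the lowest shares on the 5 rows together. In 694 pairs, 1 feature held at least 5 times the total of its opposite-strand feature. The smaller feature's count was a median of 8.83%, 5.01% and 4.77% of the larger's with carnitine. This median was 6.73%, 8.84% and 7.97% with the high-fat diet alone, and 7.71%, 6.13% and 8.17% in control. No source used here gives the strand setting of the count, and the part of these differences in the shares was not tested. Taken instead per count on features with no opposite-strand feature, the 4 rows on chromosome 1 together came to 12.6%, 4.06% and 4.42% with carnitine, 4.84%, 5.41% and 4.59% with the high-fat diet alone, and 3.96%, 3.76% and 3.37% in control. On that base carnitine 2 and 3 lay between the high-fat diet and the control libraries.

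Marker genes showed muscle in all libraries, with 16 of 16 skeletal muscle markers tested and a summed level of 42164 to 55382 CPM with carnitine, 68488 to 85321 with the high-fat diet alone and 54857 to 88946 in control. Summed marker levels are CPM of the library total, without TMM scaling. Carnitine 1 had the highest summed level of endothelial markers (311.6 CPM for 7 genes, Fabp4 among them, against 74.3 to 188 in the other 8 libraries), of smooth muscle and pericyte markers (159.6 CPM for 6 genes, against 59.9 to 126) and of cardiac markers (30.7 CPM for 3 genes, against 4.08 to 19.9). The brown fat markers listed with the cardiac ones, Ucp1 and Cidea, had no row. Its macrophage (116 CPM), fibroblast (36.2), erythroid (10.6), neural (7.09) and adipocyte (0.394) markers lay within the range of the other 8 libraries. No marker with a row was at 0 in all libraries. The part of these cell types in the counts of the 5 rows was not tested.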

How the data were processed

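Per the labels' protocols, the mRNA library kit kept strand. The submitters' processing notes name, with no roles, HTSeq 0.13.5, HISAT2 2.2.0, Bowtie2 2.4.2, Trim Galore 0.6.4 and edgeR, as well as GRCm39, GRCh38 and Rnor_6.0. No source used here says how reads that match several places were counted. The sheet the authors deposited holds raw counts per feature. They also deposited FPKM values, which were checked to equal counts per length and library total (largest relative deviation 5.33e-15 over the 5 rows). Coordinates are the sheet's own.

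Counts were tested with edgeR 4.0.16 in R 4.3.3 (robust quasi-likelihood F-test, TMM, default expression filter, 9 libraries in 1 fit of 3 groups, Benjamini-Hochberg adjustment over 7523 features). CPM are TMM-normalised and standard errors are the fold change over the square root of F. Wilson intervals and the limit of 3 counts cover counting error only, since amplified reads are not independent molecules. M21 transcripts were aligned to M21 mitochondrial transcripts by blastn 2.17.0. M21 annotates another build and gave no coordinates. The edgeR test of the high-fat diet against control was tried on simulated counts, with 200 features changed and no library set apart. Alternatives included DESeq2 1.42.0, limma-voom (limma 3.58.1), other scalings and filters, and fits without each library.

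The rows, gene lists and tests were chosen with earlier results of these data known. Genes named are the 5 rows, other copies with at least 10 counts, the 5 features nearest in profile, and per list the 2 largest fold changes per comparison at 10 CPM or more. One listed gene is not reported here. Same-numbered libraries did not deviate together, so numbers were not taken as pairs.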

Additional observations from a re-analysis of the deposited data

How the results depend on the processing

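None of the 5 rows passed in any comparison under the 20 alternatives tried for each (smallest adjusted p = 0.143, without carnitine 1). Of 285 fold changes of the rows under alternatives, 10 had the other sign. For Gm10925, carnitine against the high-fat diet came to 0.13 with scaling on features with no opposite-strand feature, which moved the median of all features to 0.32 there, 0.21 against control and −0.10 for the high-fat diet against control, while library totals alone moved these medians to −0.20, −0.03 and 0.17. The others came from leaving out 1 library. Over these 9 fits carnitine against the high-fat diet ranged from −0.39 to 0.94 for Gm28437, −0.49 to 0.056 for Gm10925, −0.58 to 1.15 for Gm28661, −0.51 to 0.63 for Gm29216 and −0.52 to 1.30 for Gm13340. Carnitine against control ranged from −0.10 to 0.54 for Gm10925, −0.31 to 1.46 for Gm28661, −0.26 to 0.92 for Gm29216 and −0.10 to 1.75 for Gm13340. All lowest values are those without carnitine 1. As a mean over 9 libraries, shares of counts on features with no opposite-strand feature were 1.32% for Gm28437, 1.20% for Gm10925, 1.55% for Gm28661, 1.16% for Gm29216 and 1.87% for Gm13340. Without the 3 features with most counts in the total, the means were 0.279% for Gm28437, 0.254% for Gm10925, 0.329% for Gm28661, 0.246% for Gm29216 and 0.398% for Gm13340. Smaller totals give higher shares by construction. Over the fits without a library the mean shares were 0.132 to 0.183% for Gm28437, 0.146 to 0.164% for Gm10925, 0.145 to 0.218% for Gm28661, 0.125 to 0.160% for Gm29216 and 0.167 to 0.265% for Gm13340.

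Features called numbered 4 on the high-fat diet against control (0 to 68 under alternatives), 4 with carnitine against the high-fat diet (0 to 84) and 32 with carnitine against control (5 to 86). In that order DESeq2 called 35, 42 and 69, edgeR without a filter 68, 26 and 60, a filter on CPM 40, 10 and 42, and fits of 6 libraries 40, 0 and 10. Limma-voom called 18, 4 and 30. With the replicate block the counts were 10, 3 and 31, and 0 of the 5 rows passed. Deviations of same-numbered libraries correlated at −0.164 to 0.142 and those of other pairs at −0.154 to 0.187, so no pairing by number was seen. These ranges cannot exclude a weak one. Without carnitine 1, an alternative added after the data were seen for gene lists, 4 listed genes passed that did not with all libraries (Mpv17, Uqcrq and Sdhb among them), and its tested features numbered 8087 in place of 7523. With the 5 rows summed into 1, the log2 fold changes were 0.36, 0.57 and 0.93. A looser alignment rule (50% of length, 80% identity) found 13 other copies. Groups of 3 libraries, with 1 apart in the carnitine group, limit what these tests can show, and the unknown source of the reads limits what a row's level stands for.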
